A study of Mus musculus with 6 samples.

Results

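The 10 genes described here encode inhibitors that extracellular signal-regulated kinase (ERK) induces against its own pathway, and ETS transcription factors that it induces. They were taken by name: the Sprouty genes SPRY1, SPRY2 and SPRY4, the SPRED genes SPRED1 and SPRED2, the dual-specificity phosphatase genes DUSP4, DUSP5 and DUSP6, and the ETS factor genes ETV4 and ETV5. All 10 had 1 probe set each and were among the 18417 named genes compared. The samples were tumours of SK-N-BE(2), an established human neuroblastoma line with amplified MYCN, grown in the adrenal gland of NSG mice, which lack T, B and natural killer cells. In the treated group, 3 mice received 400 µg of the CXCR4 inhibitor BL-8040 under the skin on 14 consecutive days from 7 days after cell injection. The other group was 3 control mice with the same cells in the same strain, and the labels do not say what those mice received. Each tumour was read on 1 array of human probe sets, and mouse RNA is read only as far as it binds them.

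Growth factor receptors, and some receptors coupled to G proteins, activate RAS and then the kinases RAF, MEK and ERK. Active ERK raises transcription of its own inhibitors: Sprouty and SPRED proteins act at the level of RAS and RAF, and dual-specificity phosphatases remove phosphate from ERK itself. Because these transcripts follow the kinase's activity they are used as readouts of the pathway, which in neuroblastoma is driven in part by receptor tyrosine kinases of sympathetic neuroblasts. ETV4 and ETV5 belong to the PEA3 group of ETS factors, which growth factor signals induce and which bind to the promoters and enhancers of other genes.

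Of the 10 genes, 8 stood higher in the mean after BL-8040 and 2 stood lower, where 41.5% of all genes stood higher. The median difference was 0.12 log2 units against -0.02 over all genes. The Sprouty genes SPRY4 and SPRY2 stood 1.21-fold and 1.19-fold above the controls, DUSP6 1.14-fold and SPRED1 1.13-fold, while DUSP4 stood at 0.905 times the control level and SPRED2 at 0.997 times. No gene passed the test: 0 of the 10, and 0% of all genes, had a limma adjusted p under 0.05 (Benjamini-Hochberg over 18417 genes). At an unadjusted limma p under 0.05 stood 3 of the 10, SPRY4, SPRY2 and SPRED1, all higher, against 2.64% of all genes that were higher and 5.08% that were lower at that p. The treated values of the same 3 genes lay wholly above the control values, which held for 4.93% of all genes; 9.05% lay wholly below, and 14.0% did not overlap in either direction. The set was drawn up with earlier results of these tumours known, so these counts are a description and not independent evidence of a direction.

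**Figure D1:**
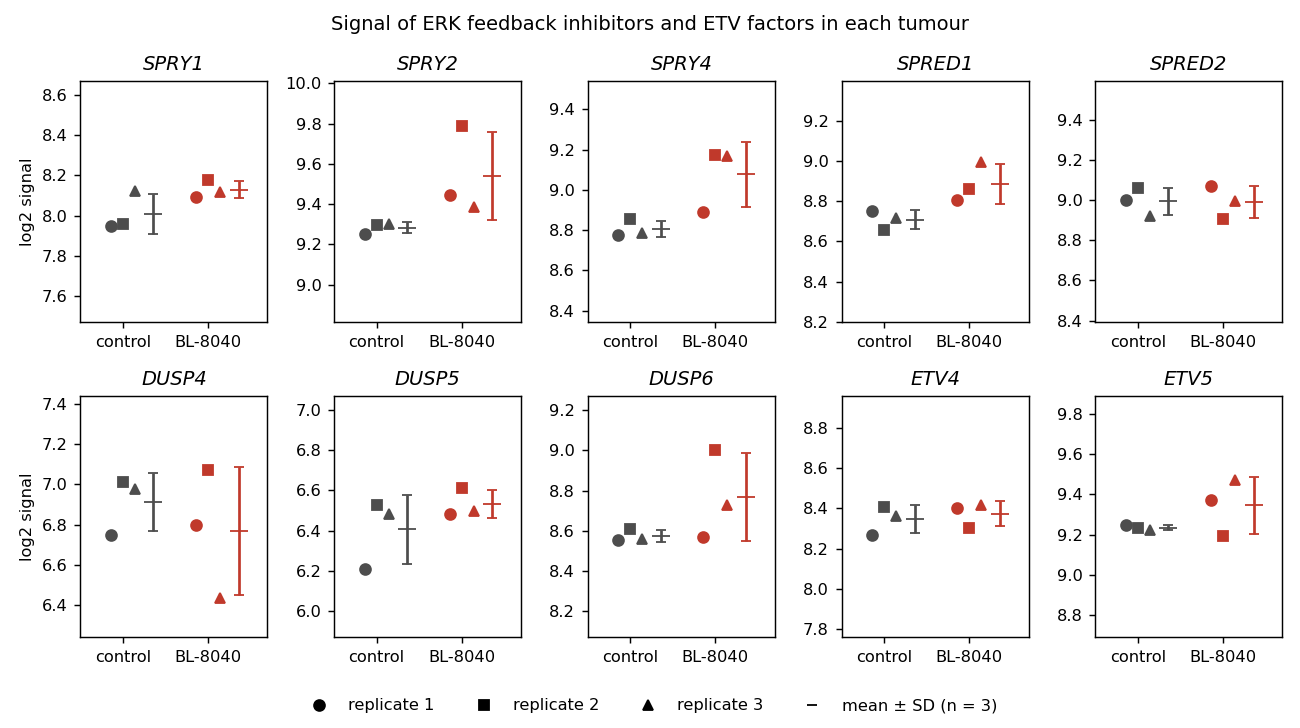
Log2 signal of each gene (y axis) in control (grey) and BL-8040 (red) tumours, 1 symbol per array, with the mean and SD of 3 arrays beside each group. All panels span the same height in log2 units. The treated values lie above all control values in SPRY2, SPRY4 and SPRED1 and overlap with them in the other 7 genes.

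Sprouty proteins are membrane-associated inhibitors of signalling from growth factor receptors to RAS and RAF. SPRY4 measured 8.89, 9.17 and 9.17 after BL-8040 and 8.78, 8.85 and 8.79 in controls (log2, here and below in the order of replicates 1 to 3). The groups did not overlap, but BL-8040 replicate 1 lay just above the highest control. The SPRY4 difference was 0.27 ± 0.09 (SE) with a 95% interval from 0.06 to 0.48, a limma p of 0.0158 and an adjusted p of 0.644. It ranked 406 by p among 18417 genes, and 1.63% of all genes had a difference at least as high. The exact permutation p was 0.1, below which 3 against 3 arrays cannot go.

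SPRY2 measured 9.44, 9.79 and 9.39 after BL-8040 and 9.25, 9.30 and 9.30 in controls. The controls lay within a narrow band (SD 0.03, n = 3), and the treated values (SD 0.22, n = 3) were spread by BL-8040 replicate 2. The SPRY2 difference was 0.26 ± 0.11 (SE), with a 95% interval from 0.01 to 0.50 and a limma adjusted p of 0.644. Without BL-8040 replicate 2 the SPRY2 difference went to 0.13. SPRY1 measured 8.09, 8.18 and 8.12 after BL-8040 and 7.95, 7.96 and 8.12 in controls. Control replicate 3 reached the treated range, and the SPRY1 difference of 0.12 ± 0.08 (SE) had an interval from -0.06 to 0.29. Thus all 3 Sprouty genes stood higher in the mean, with their highest value in BL-8040 replicate 2 and their lowest in control replicate 1.

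SPRED proteins, relatives of the Sprouty proteins, bring the RAS-inactivating protein neurofibromin to the membrane. SPRED1 measured 8.80, 8.86 and 8.996 after BL-8040 and 8.75, 8.66 and 8.72 in controls. BL-8040 replicate 3 had its highest value, and the groups did not overlap. The SPRED1 difference was 0.18 ± 0.08 (SE), with a 95% interval from 0.0026 to 0.35 and a limma adjusted p of 0.644, and it went to 0.12 without BL-8040 replicate 3. SPRED2 measured 9.07, 8.91 and 8.99 after BL-8040 and 8.999, 9.06 and 8.92 in controls. Both groups covered the same range: the SPRED2 difference of -0.0041 had an interval from -0.18 to 0.17, and it turned to 0.02 when each array was centred on its median. NF1, the gene of neurofibromin itself, stood higher by 0.19 ± 0.08 (SE), with treated values of 6.67, 6.61 and 6.72 above controls of 6.59, 6.39 and 6.48 and a limma adjusted p of 0.644.

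**Figure D2:**
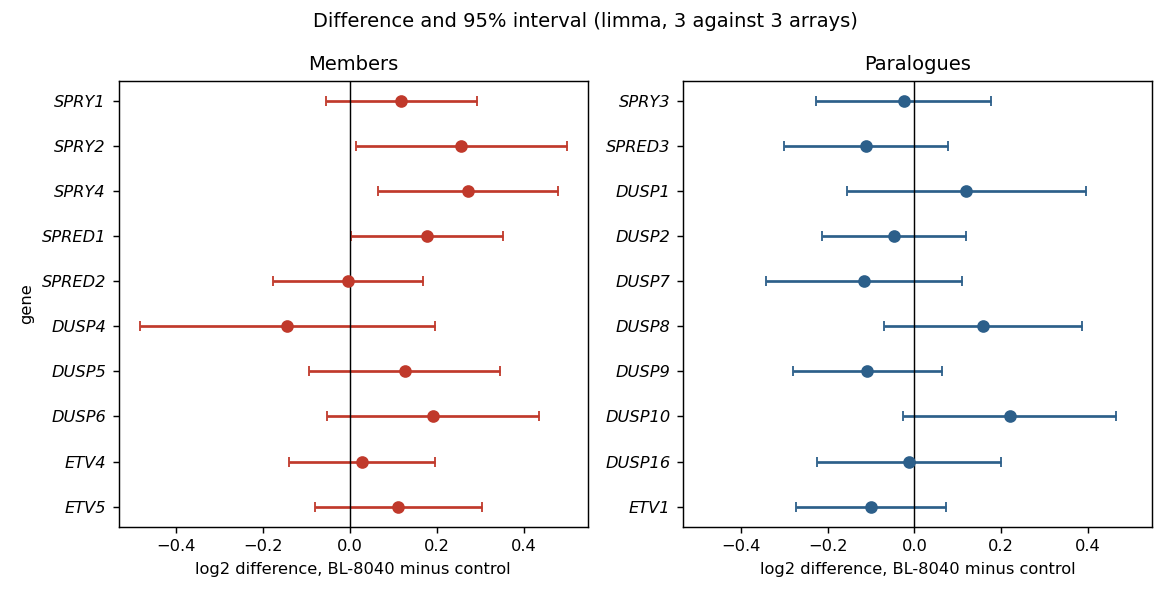
Difference between BL-8040 and control (x axis, log2 units) with its 95% interval from limma, for the 10 genes (left) and for 10 paralogues of the same families (right). The intervals of SPRY2, SPRY4 and SPRED1 lie above 0, and those of all 10 paralogues cross 0.

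Of the phosphatases, DUSP6 is a cytoplasmic enzyme selective for ERK, and DUSP4 and DUSP5 act in the nucleus. DUSP6 measured 8.57, 9.004 and 8.73 after BL-8040 and 8.56, 8.61 and 8.56 in controls. BL-8040 replicates 2 and 3 were above all controls and replicate 1 lay among them. The DUSP6 difference was 0.19 ± 0.11 (SE), with an interval from -0.05 to 0.44 and a limma adjusted p of 0.669, and it went to 0.07 when BL-8040 replicate 2 was left out and to 0.29 when replicate 1 was. DUSP5 measured 6.48, 6.61 and 6.50 after BL-8040 and 6.21, 6.53 and 6.48 in controls. Its groups overlapped, and its low control mean came from control replicate 1: the DUSP5 difference went from 0.13 to 0.03 without that array.

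DUSP4 had the widest spread of the set and pointed the other way. It measured 6.80, 7.07 and 6.44 after BL-8040 and 6.75, 7.01 and 6.97 in controls, so both its highest and its lowest value came from treated tumours. The DUSP4 range of 0.63 over the 6 arrays was reached or exceeded by 5.98% of all genes. The DUSP4 difference of -0.14 ± 0.15 (SE) had an interval from -0.48 to 0.20. It turned to 0.02 when BL-8040 replicate 3 was left out and went to -0.30 when replicate 2 was. The direction of the DUSP4 difference thus rested on a single tumour.

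ETV5 measured 9.37, 9.19 and 9.47 after BL-8040 and 9.25, 9.23 and 9.22 in controls. The controls agreed to within an SD of 0.01 (n = 3), BL-8040 replicates 1 and 3 lay above them and replicate 2 below them. The ETV5 difference was 0.11 ± 0.08 (SE), with an interval from -0.08 to 0.30 and a limma adjusted p of 0.734. It went to 0.19 when BL-8040 replicate 2 was left out and to 0.05 when replicate 3 was. ETV4 measured 8.40, 8.30 and 8.42 after BL-8040 and 8.27, 8.41 and 8.36 in controls. Its range of 0.15 was the smallest of the 10 genes, its groups overlapped, and its difference of 0.03 had an interval from -0.14 to 0.20; the ETV4 difference turned to -0.01 without control replicate 1.

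**Figure D3:**
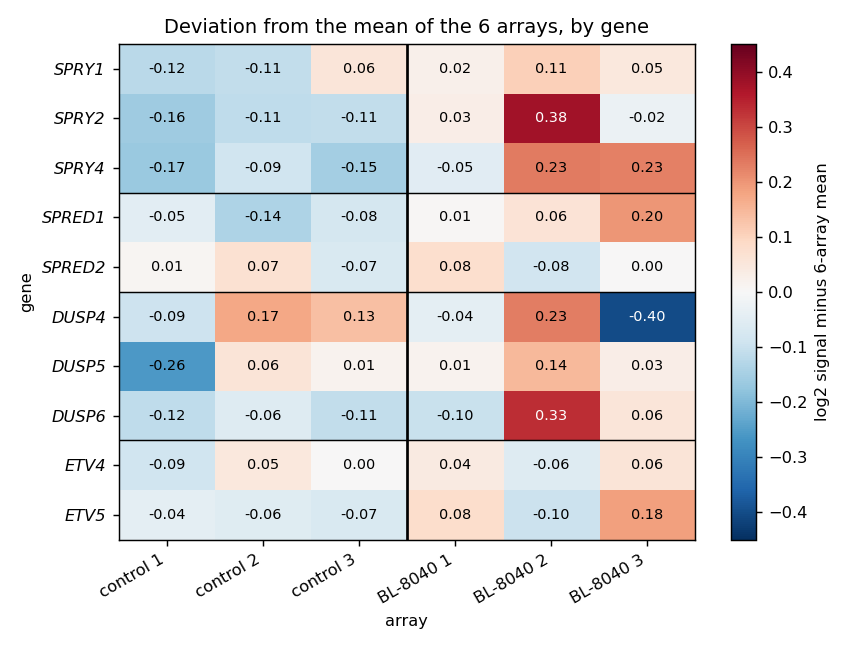
Log2 signal minus the gene's mean over the 6 arrays, for each gene (rows, grouped as Sprouty, SPRED, phosphatase and ETV genes) and array (columns, controls left of the line). SPRY2 (0.38), DUSP6 (0.33), SPRY4 (0.23) and DUSP4 (0.23) have positive deviations in BL-8040 replicate 2, and DUSP4 (-0.40) has the lowest deviation, in BL-8040 replicate 3.

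BL-8040 replicate 2 held the highest value of 6 of the 10 genes, SPRY1, SPRY2, SPRY4, DUSP4, DUSP5 and DUSP6, against 13.6% of all genes. The same tumour held the lowest value of SPRED2 and ETV5. BL-8040 replicate 3 held the highest value of SPRED1, ETV4 and ETV5, against 16.3% of all genes, and its SPRY4 value was close to that of replicate 2. No control held the highest value of any of the 10, where a control was highest in 57.4% of all genes, and control replicate 1 held the lowest value of 6, against 13.0% of all genes. By role, BL-8040 replicate 2 deviated from the 6-array mean by 0.24 for the Sprouty genes and 0.24 for the phosphatases, but by -0.01 for the SPRED genes and -0.08 for the ETV genes. BL-8040 replicate 3 deviated by 0.08 for the Sprouty genes, 0.10 for the SPRED genes and 0.12 for the ETV genes. Its phosphatase mean of -0.11 came from DUSP4 (-0.40), while DUSP5 (0.03) and DUSP6 (0.06) lay above 0.

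BL-8040 replicate 2 also stood apart in EGR1, a zinc finger factor that ERK induces within minutes. EGR1 measured 7.67, 10.70 and 7.58 after BL-8040 and 7.53, 8.24 and 7.82 in controls, so that 1 treated tumour lay above the other 5, and the difference of 0.79 had a 95% interval from -0.80 to 2.38. FOS, another immediate early gene, measured 5.996, 7.12 and 5.87 after BL-8040 and 5.99, 6.48 and 6.58 in controls. Without BL-8040 replicate 2 the EGR1 difference went from 0.79 to -0.24 and the FOS difference from -0.02 to -0.42. Whether what set this tumour apart in EGR1 also bears on SPRY2, SPRY4 and DUSP6 was not tested. Without this tumour 9 of the 10 genes stood higher and the median difference was 0.09, but 0 of the 10 had an unadjusted limma p under 0.05, where 2.55% of all genes were higher at that p.

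**Figure D4:**
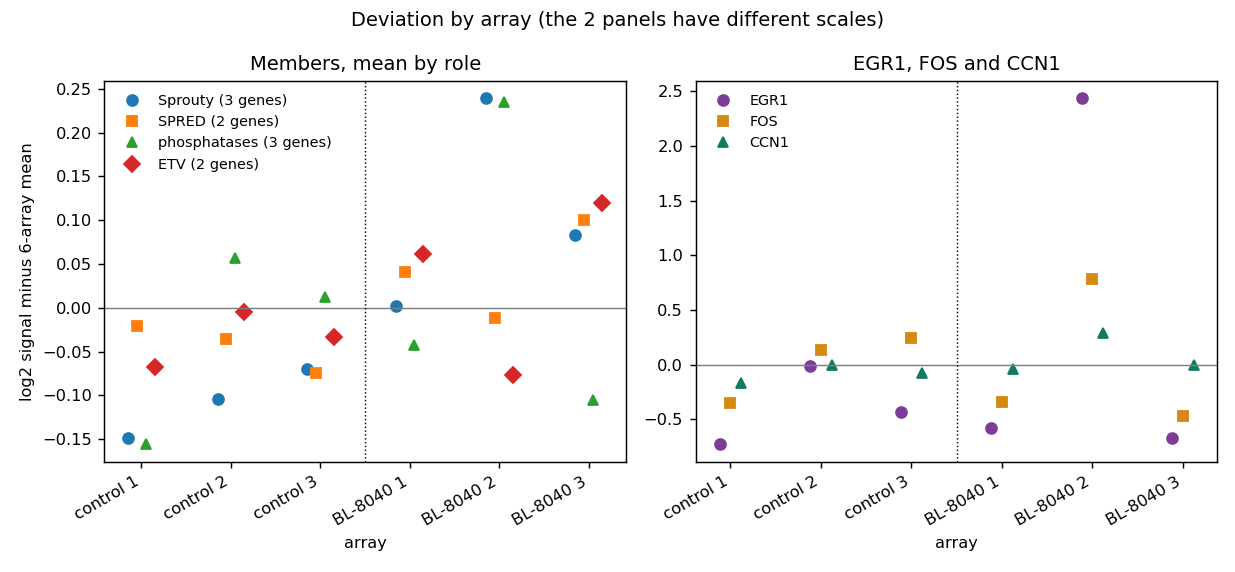
Deviation from the 6-array mean (y axis, log2 units) by array (x axis), for the mean of the genes of each role (left) and for EGR1, FOS and CCN1 (right). The scales of the panels differ. The Sprouty and phosphatase means (0.24 each) and EGR1 are highest in BL-8040 replicate 2, where the ETV mean (-0.08) is lowest.

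Among the 45 pairs of these genes, 29 had a positive Pearson r over the 6 arrays and 16 a negative one, with a median of 0.23. None of the 45 passed after Benjamini-Hochberg adjustment, with a smallest adjusted exact permutation p of 0.438. SPRY2 and DUSP6 had the highest Pearson r, 0.918 (exact permutation p = 0.0444, adjusted 0.5) with a Spearman rho of 0.714 (exact permutation p = 0.136, adjusted 0.681), below the rho of 0.943 of SPRY4 with DUSP6 and of DUSP5 with DUSP6. Without BL-8040 replicates 1 and 2, the arrays farthest from the SPRY2 median, the r was 0.939. That value rests on BL-8040 replicate 3 (SPRY2 9.39, DUSP6 8.73), which alone lay apart from the controls there. With the group means taken out over all 6 arrays the r was 0.873, with BL-8040 replicate 2, the highest in both genes, kept in. SPRY4 and DUSP6 had r = 0.857 (exact permutation p = 0.00972, adjusted 0.438) and rho = 0.943 (exact permutation p = 0.0167, adjusted 0.375). That r went to 0.541 without the 2 arrays farthest from the SPRY4 median, so it rests in part on BL-8040 replicates 2 and 3. DUSP4 and ETV5 ran in opposite directions, with r = -0.899 (exact permutation p = 0.0208, adjusted 0.438) and rho = -0.886 (exact permutation p = 0.0333, adjusted 0.375). This r went to -0.536 without BL-8040 replicates 2 and 3, the arrays farthest from the DUSP4 median.

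Of 10 paralogues of the same families outside the set, 3 stood higher and 7 lower, with a median difference of -0.04, and 0 passed the test. DUSP10, a phosphatase of the stress-activated kinases, had the highest difference among them, 0.22 ± 0.11 (SE), with a limma adjusted p of 0.651. DUSP7, which like DUSP6 is a cytoplasmic ERK phosphatase, differed by -0.12, ETV1, the third PEA3 factor, by -0.10, and SPRED3 by -0.11. These 4 paralogues were chosen for mention with their values in view. Whether the 10 genes differ from these paralogues was not tested.

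Of 19 other measured transcripts that ERK activity is known to raise, 12 stood higher and 7 lower, with a median difference of 0.08. None passed the test, and 2 were higher and 1 lower at an unadjusted limma p under 0.05, against 2.64% and 5.08% of all genes. HBEGF, a ligand of the EGF receptor, measured 5.45, 5.58 and 5.35 after BL-8040 and 5.01, 5.16 and 5.30 in controls, a 1.23-fold level. Its mean signal was at percentile 38.3, BL-8040 replicate 3 lay just above the highest control, and the limma adjusted p was 0.644. MCL1, an inhibitor of apoptosis, measured 8.83, 9.006 and 9.03 after BL-8040 and 8.79, 8.75 and 8.50 in controls. LIF, a cytokine gene, stood lower by 0.20 ± 0.08 (SE) at a dim signal. Without BL-8040 replicate 2 the balance of these 19 turned, to 8 higher and 11 lower with a median of -0.03.

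Upstream of the inhibitors, the adaptors, RAS and RAF proteins, kinases and scaffolds were divided. Of 15 measured cascade genes 9 stood higher and 6 lower (median 0.02), and 7 others of the list were not analysed here. MAPK3, which encodes ERK1, measured 8.19 ± 0.04 in treated and 8.20 ± 0.09 in control tumours (mean ± SD, n = 3 in each group). Its difference of -0.01 had an interval from -0.18 to 0.16. Of 14 measured receptor tyrosine kinases 6 stood higher and 8 lower (median -0.02), and of 10 other proteins that damp the cascade 3 stood higher and 7 lower (median -0.05). None of these passed the test. CXCR4, the receptor that BL-8040 blocks, differed by -0.17 with an interval from -0.52 to 0.18, at a dim signal (percentile 20.6). The CXCR4 difference went to -0.07 when BL-8040 replicate 3 was left out and to -0.33 when replicate 2 was. Transcript levels do not measure the activity of the kinases.

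**Figure D5:**
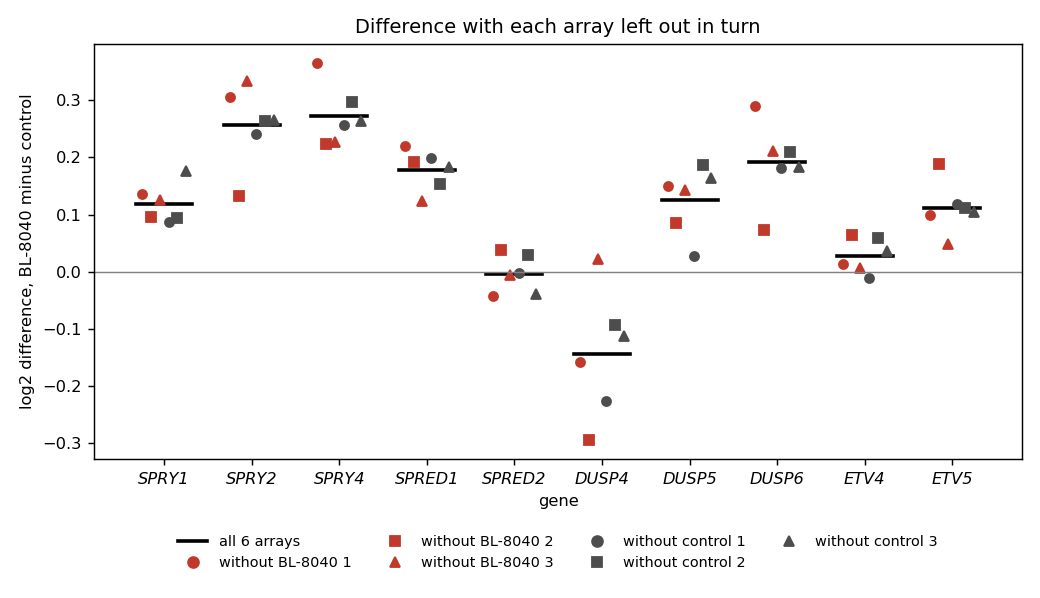
Difference between BL-8040 and control (y axis, log2 units) for each gene, with all 6 arrays (bar) and with each array left out in turn (symbols). SPRY4 stays between 0.22 and 0.37, and SPRED2, DUSP4 and ETV4 have values on both sides of 0.

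With 1 array left out, SPRY4 differed by 0.22 to 0.37, SPRY2 by 0.13 to 0.33, SPRED1 by 0.12 to 0.22 and SPRY1 by 0.09 to 0.18. Between 3 and 5 of the 10 genes had treated values above all control values in these subsets, where 7.97% to 11.1% of all genes did; SPRY2, SPRY4 and SPRED1 are among them by construction. Between 7 and 9 of the 10 stood higher. The number at an unadjusted limma p under 0.05 was 0 when BL-8040 replicate 2 was left out, 4 when BL-8040 replicate 1 was left out, and 1 in each of the other 4 subsets, where 1.78% to 3.82% of all genes were higher at that p over the 6 subsets.

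The tumours carried the markers of the line: 8 measured markers of sympathetic neuroblastoma cells had mean signals from percentile 71.9 to 99.9 of all genes, with MYCN at the top. After BL-8040, 7 of these 8 stood lower and 1 higher, with a median difference of -0.23, and without BL-8040 replicate 3 the count was 6 of 8 lower and the median -0.12; without control replicate 2 the median was -0.13. All 8 were lowest in BL-8040 replicate 3, as were 5609 of all 18417 genes, the most of any array. This array also stood apart on the first principal component, at -22.7 where the other 5 lay between -0.743 and 10.1. Markers of host cell types were mostly dim, with median percentiles of 28.8 for 10 endothelial, 25.6 for 10 myeloid and 25.0 for 9 adrenal cortex genes. The 10 fibroblast and pericyte markers had a median percentile of 95.5, and their mean log2 signal was 8.57 to 8.90 after BL-8040 and 8.62 to 8.72 in controls. On human probe sets, signal from mouse cells and from the human tumour cells cannot be told apart. Of these 10 markers 6 were highest in BL-8040 replicate 3, against 16.3% of all genes, and SPRED1, ETV4 and ETV5 were highest there too. Their part in the results was not tested. In whole tumours, fewer cells of a type and less RNA per cell cannot be told apart. The unadjusted 95% intervals of the 10 differences reached 0.17 to 0.34 log2 units to each side. The intervals of SPRY4, SPRY2 and SPRED1 lay above 0, yet each had a limma adjusted p of 0.644 over all genes. Changes of these sizes or smaller could thus go uncalled with 3 arrays per group.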

How the data were processed

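RNA of 6 tumours was hybridised to the Affymetrix Human Gene 1.0 ST platform, 200 ng of total RNA each, per the labels' protocols. The authors deposited 1 table of log2 values, from 1.08 to 13.2, 1 column per array; the submitters' processing notes name Partek 6.6. Background correction, normalization and summarization are not stated in the labels. No detection call was available, so dim values are given by the percentile of their mean signal. Gene names came from the platform annotation. Probe sets with exactly 1 symbol were used (19460), and of several per gene the one with the highest 6-array mean was kept, which left 18417 genes. Human sequences and positions were not used here.

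Groups came from the sample titles and were compared on all 6 arrays with limma 3.58.1 (lmFit, eBayes; R 4.3.3), without a block, two-sided, with Benjamini-Hochberg adjustment over all genes and a call at 0.05. A difference is the treated mean minus the control mean in log2 units, and a fold is its antilog. The test was checked on simulated arrays. Each array is taken to be a different animal, as the design text has 3 mice in each group. Exact permutation tests were two-sided. The 10 genes and all lists were chosen with earlier results of these data known. Named besides the 10 were up to 3 genes per list at an unadjusted p under 0.05, EGR1, FOS, MAPK3, CXCR4 and MYCN, 4 paralogues chosen with their values in view, TH, DBH and PHOX2A likewise, and the 3 genes nearest in pattern to SPRY2 and DUSP6. Alternatives were 2 filters on dim genes, the mean of probe sets, quantile normalization, centring arrays on the median, array weights, robust moderation with a variance trend, a replicate block, a threshold of 0.1, and each array left out in turn.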

Additional observations from a re-analysis of the deposited data

How the results depend on the processing

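With limma, 0 of the 10 genes and 0 of all genes passed under any alternative run. Unadjusted, 1422 genes had a p under 0.05 against 921 by chance. With 1 array left out this number ran from 905, without control replicate 2, to 1838, without control replicate 1. The smallest adjusted p over all genes lay between 0.224 and 0.896. Filters on dim genes, the mean of probe sets, the variance trend and the replicate block cannot move a difference of these genes. Of the 30 differences under quantile normalization, median centring and array weights, 29 kept their sign, and the other was SPRED2, at 0.017 after centring each array on its median. Leaving out 1 array kept the sign of 56 of 60: SPRED2 ran from -0.043 to 0.037, DUSP4 from -0.30 to 0.022 and ETV4 from -0.010 to 0.064. The number of the 10 whose groups did not overlap lay between 3 and 5, with 5 without control replicate 2. In that subset 8.44% of all genes had treated values wholly above the controls, against 4.93% with all 6 arrays. Deviations of arrays with the same replicate number correlated at -0.04, 0.02 and 0.08, and those with different numbers at -0.09 to 0.07. The titles give no more than a replicate number, and correlations of deviations from means of 3 arrays cannot exclude a pairing. With the replicate block 0 of the 10 genes passed and SPRY4, at 0.27, had a limma adjusted p of 0.613. The number of arrays limits the precision, and signal over background could not be judged.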

Other observations

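The genes nearest in pattern were found as those outside the set with the smallest root-mean-square distance between gene-centred log2 values over the 6 arrays. CCN1, which encodes a matricellular protein, was nearest to SPRY2 (0.07) and second nearest to DUSP6 (0.05). It measured 5.38, 5.71 and 5.42 after BL-8040 and 5.26, 5.42 and 5.35 in controls, with its highest value in BL-8040 replicate 2, as for SPRY2 and DUSP6. RUFY3 and FAM177B followed for SPRY2, and OR13D1 and IL22RA2 were the other 2 for DUSP6. FAM177B, OR13D1 and IL22RA2 had dim signals, with no 6-array value above 3.23. Such distances over 6 arrays describe these tumours and carry no test.

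Among the markers of host cell types, those at an unadjusted limma p under 0.05 went both ways. EMCN, an endothelial sialomucin gene, stood 1.27-fold higher at percentile 96.3, where the 10 endothelial markers had a median percentile of 28.8. PECAM1, another of the endothelial markers, stood at 0.862 times the control level at percentile 18.8. Of these 10 markers 3 stood higher and 7 lower, where 41.5% of all genes stood higher. LYZ, the lysozyme gene, stood 1.25-fold higher at percentile 11.9, and of the 10 myeloid markers 6 stood higher and 4 lower. Of the tumour-cell markers 7 of 8 stood lower, and MYCN stood higher, by 0.03. HAND2 and PHOX2A, transcription factors of the sympathetic lineage, stood at 0.863 and 0.845 times the control level. The catecholamine enzyme genes TH and DBH stood at 0.643 and 0.651 times. PHOX2A, TH and DBH, chosen with their values in view, had an unadjusted limma p of 0.054, 0.098 and 0.109. Their limma intervals ran from -0.49 to 0.0051, from -1.42 to 0.14 and from -1.41 to 0.17. CHGA differed by -0.40, GATA3 by -0.11 and ISL1 by -0.08. Without BL-8040 replicate 3 the differences of TH and DBH went from -0.64 to -0.18 and from -0.62 to -0.22. EMCN, PECAM1, LYZ and HAND2 had a limma adjusted p of 0.644.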
